A study of Rattus norvegicus with 32 samples.

Results

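Mammary gland RNA from 8 rats killed on day 2 of the 4-day estrous cycle was compared with that from 8 rats killed on day 1. These are 16 of the 32 arrays of the series. Day 1 holds the rats labelled 7, 7.5 and 10 h of the cycle, then those of 13 and 13.2 h, and last those of 14.6, 16 and 17.6 h. Day 2 holds the rats labelled 31.6 and 32.8 h, then those of 34.5 and 35.5 h, next those of 37.1 and 38.3 h, and last those of 41.6 and 43 h. Hours were counted on so that hour 24 is the start of day 2, and the rats of both days fall between 7 and 19 h of the day. The array labelled 40 h, also of day 2, was left out, and the study discarded it because its data seemed corrupted. The rats were adult nulliparous Sprague-Dawley females that had received no treatment, and each array stands for a single rat. Neither the labels nor the study's methods give a replicate of any time point, so the p-values measure only the spread between rats. That spread was estimated over the 31 arrays of days 1 to 4 unless another set is named. The study places estrus, staged by daily vaginal lavage and cervical histology, on day 2. The labels describe the fourth glands, freed of lymph nodes and kept in RNAlater, with RNA from an RNeasy column, while the study's methods describe a chain of left glands, flash-frozen and extracted with TriZol before the column; which was used was not settled. The label protocol also speaks of mice, although the organism is given as rat.

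During the cycle, estrogen from the growing ovarian follicles peaks before ovulation, and the level of progesterone changes as well. In the mammary gland the receptors for both hormones sit in a minority of the luminal epithelial cells, which signal to their neighbours through secreted factors such as amphiregulin, RANK ligand and WNT4. The gland of a virgin rat also holds milk-protein-producing alveolar cells, contractile myoepithelial cells, fat, vessels and immune cells. In such bulk tissue fewer cells of a type and less RNA per cell cannot be told apart.

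On the Rat 230 2.0 array a gene is read by 1 or more probe sets, each a group of short probes, and all values below are linear intensities unless a log2 scale is named. Array medians ran from 49.9 to 54.7 over the 16 rats, and the median correlation of an array's log2 values with those of the other 15 ran from 0.971 to 0.984. Markers of the labelled tissue were bright in every rat: the milk casein Csn1s1 lay between 12440 and 30402, the luminal keratin Krt18 between 2360 and 3421, and the fat hormone Adipoq between 3206 and 7690. Skeletal muscle RNA was also present in unequal amounts. The actin of muscle fibres, Acta1, ran from 40.8 to 14870 on day 1 and 252 to 13094 on day 2, and its change of 0.26 on the log2 scale had an SE of 1.16 and was 0.93 without the rats of 41.6 and 43 h.

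The first question was which transcripts differed between the 2 days once the hour of day was taken into account. Of the 21068 probe sets that reached 10 on all 31 arrays of days 1 to 4, 1 rose on day 2 (0.00475% of those tested) and 0 fell (0%) at an adjusted p below 0.05 by limma. At an unadjusted p below 0.05 there were 1217 probe sets, 5.78% of those tested, of which 780 were higher on day 2 (3.7%) and 437 lower (2.07%). The 1217 became 616 without the rats of 41.6 and 43 h. Without each rat in turn the count moved both ways, from 786 without the rat of 43 h to 1747 without that of 35.5 h. In the same fit 85 probe sets rose and 152 fell from day 1 to day 3, a contrast that shares the day 1 rats. The differences between day 2 and day 1 were bounded for most of the array. The SE of the log2 change had a median of 0.11 and a 90th percentile of 0.20, and the 95% interval lay between -1 and 1 for 20668 probe sets (98.1%). The median change was 0.01, the median of its absolute size was 0.08, and only 36 probe sets had an estimate beyond 1 in either direction.

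**Figure D1:**
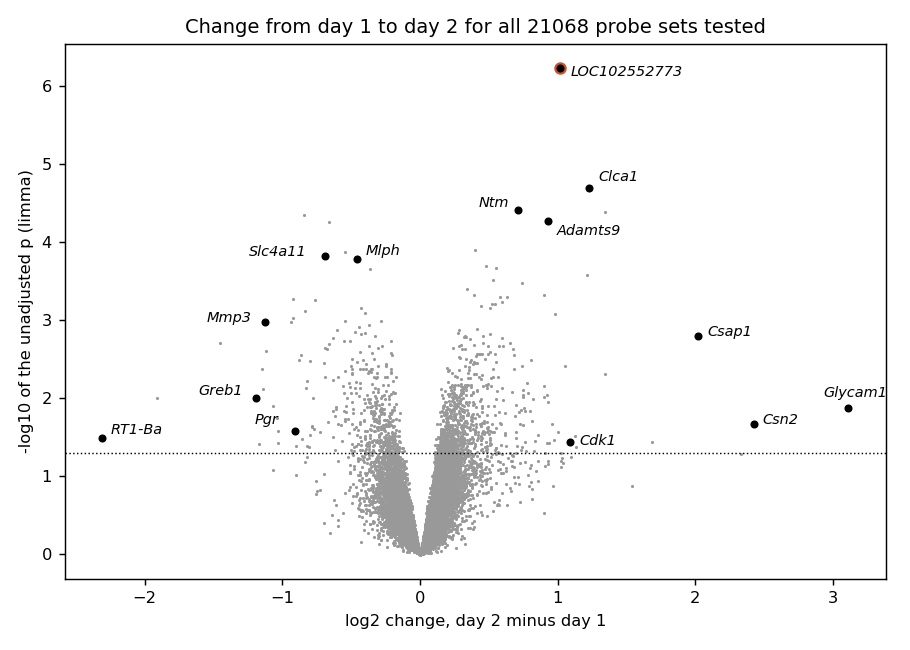
Log2 change from day 1 to day 2 (horizontal axis) against -log10 of limma's unadjusted p (vertical axis) for all 21068 probe sets. The ringed point is the only probe set past the adjusted threshold, LOC102552773; black points are genes named in the text, and the dotted line marks an unadjusted p of 0.05.

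The transcript that rose was LOC102552773, a long non-coding RNA in RefSeq's rat annotation. In order of hour its intensity was 13.4, 16.6, 13.5, 16.9, 16.0, 15.3, 10.7 and 11.8 in the rats of day 1, and 19.7, 28.7, 20.5, 30.3, 27.8, 32.8, 40.4 and 34.2 in those of day 2. All 8 rats of day 2 stood above all 8 of day 1. The log2 change was 1.02 with an SE of 0.16 and an adjusted p of 0.0126, and the medians of days 3 and 4 were 21.1 and 18.3. All of these values are near the low end of the array's range and near the filter of 10, and with 16 added to each intensity before the log the change was 0.57 (adjusted p 0.0430). Without the rats of 41.6 and 43 h the change was 0.87 with an adjusted p of 0.170. The adjusted p was also above the threshold without the rat of 16 h (0.0609), 17.6 h (0.0630), 41.6 h (0.050045) or 43 h (0.0515).

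Groups that did not overlap were rare. Over all probe sets, 4 (0.019%) had every rat of day 2 above every rat of day 1, and 2 (0.00949%) had every rat of day 2 below. The first were LOC102552773, both probe sets of Clca1 and 1 of Mus81, a DNA endonuclease; the second were Alkbh5, an RNA demethylase, and Rhbdf2. Mus81 and Alkbh5 are named after their values were seen. Their changes were small, 0.21 (SE 0.07) for Mus81 and -0.21 (SE 0.06) for Alkbh5, with adjusted p of 0.672 and 0.630.

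Clca1, a secreted protein that regulates calcium-activated chloride channels, came next in order of p. The 8 rats of day 1 had 6255, 6587, 1879, 4539, 7233, 4549, 4383 and 6077, and those of day 2 had 9414, 7680, 8313, 11257, 14961, 13827, 12518 and 16843. The lowest rat of day 2 thus lay just above the highest of day 1. The log2 change was 1.23 (SE 0.24) for this probe set and 1.34 (SE 0.28) for the other, both with an adjusted p of 0.165, so neither passed. The change was 1.13 without the rats of 41.6 and 43 h. The medians of days 3 and 4 were 11432 and 7109.

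**Figure D2:**
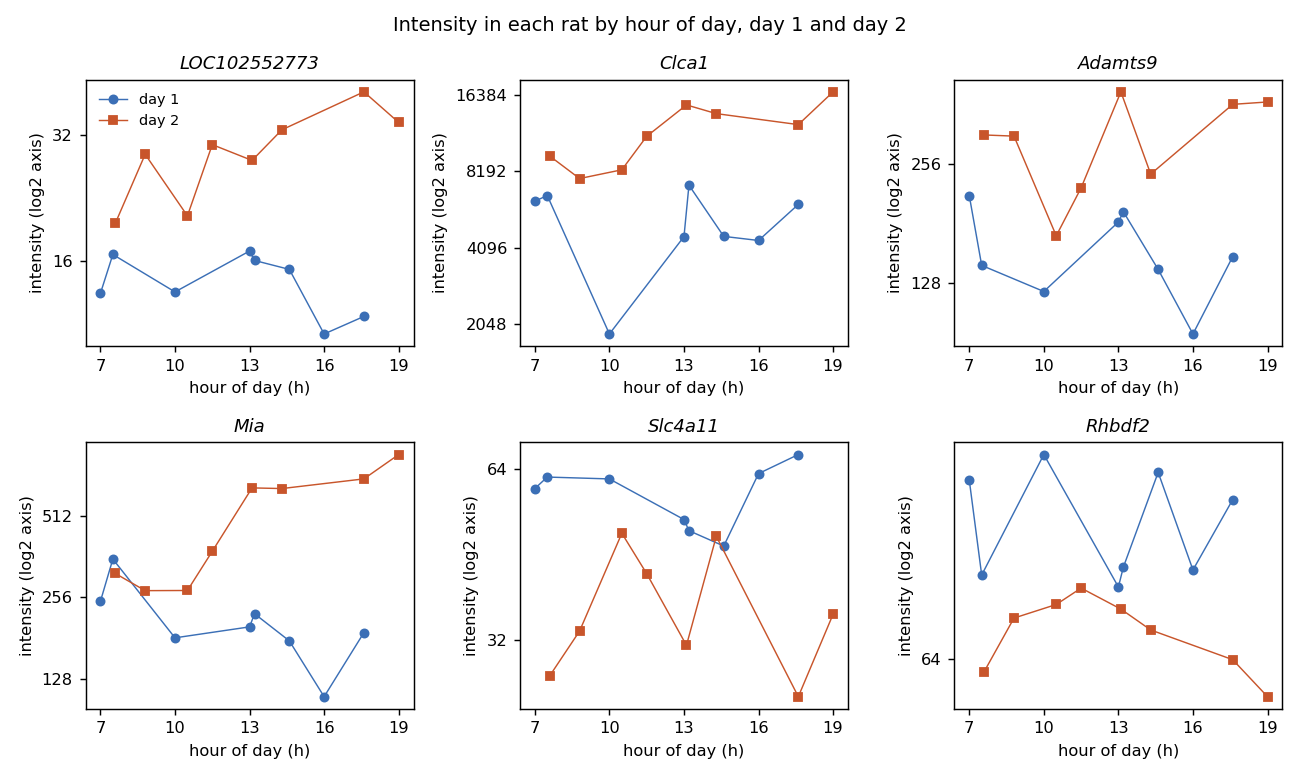
Intensity (log2 axis) against hour of day for LOC102552773, Clca1, Adamts9, Mia, Slc4a11 and Rhbdf2; blue circles are the 8 rats of day 1 and orange squares the 8 of day 2, each point a different rat, with lines that only join them in order of hour. LOC102552773, Clca1 and Rhbdf2 do not overlap between the days, and Mia is close on both days before 11 h and apart after it.

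None of the other genes highest in order of p passed the test (adjusted p from 0.165 to 0.488). Adamts9, a secreted protease that cuts proteoglycans, ran from 95.2 to 213 on day 1 and 169 to 390 on day 2, a log2 change of 0.93 (SE 0.20), while a second, dimmer probe set had -0.06 (SE 0.10). Its substrate Vcan, the proteoglycan versican, ran from 140 to 421 and from 261 to 679, a change of 0.98 (SE 0.26, adjusted p 0.538). Values of both days overlapped for Adamts9 and for Vcan. Mia, a small secreted protein that binds matrix, was between 111 and 354 on day 1 and between 271 and 858 on day 2, a change of 1.21 (SE 0.29). Its 4 highest rats were the last 4 of day 2, at 647, 643, 698 and 858. Other secreted or surface proteins in this order were Ntm, a neural adhesion molecule (0.71, SE 0.15), Srpx2 (0.63, SE 0.16), Smoc2, a matricellular protein (0.60, SE 0.16), and Flrt3, an adhesion protein (0.39, SE 0.10). Ctnnd2, a cytoplasmic catenin that binds cadherins, had 0.74 (SE 0.18), Fblim1, which links filamin to adhesions, 0.55 (SE 0.13), the calcium channel subunit Cacna2d3 0.55 (SE 0.14) and Fam118a 0.34 (SE 0.09).

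At the lower end of the order the adjusted p ran from 0.314 to 0.630, and again no gene passed. Slc4a11, a membrane transporter, had 59.2, 62.0, 61.5, 52.2, 49.9, 46.9, 62.9 and 67.9 on day 1 and 27.7, 33.2, 49.4, 41.9, 31.4, 48.8, 25.5 and 35.6 on day 2. Only 2 rats of day 2, those of 34.5 and 38.3 h, reached the range of day 1, and the change was -0.69 (SE 0.16). Rhbdf2, an inactive rhomboid that carries the protease ADAM17 to the cell surface, ran from 75.8 to 103 on day 1 and 58.7 to 75.6 on day 2, a change of -0.36 (SE 0.09). Mlph, an adaptor of Rab27 in vesicle transport, had a change of -0.46 (SE 0.11). Membrane proteins in this order were the water channel Aqp5 (-0.94, SE 0.26), the tight junction protein Cldn11 (-0.76, SE 0.20), the lysosomal protein Elapor1 (-0.92, SE 0.24, and -0.61 without the rats of 41.6 and 43 h) and the thiamine transporter Slc19a2 (-0.40, SE 0.11). Mmp3, the matrix protease stromelysin 1, ran from 27.7 to 95.8 on day 1 and 11.8 to 33.0 on day 2, a change of -1.13 (SE 0.31). The chemokine Cxcl14 had a change of -0.83 (SE 0.22), the phosphatase Dusp26 -0.92 (SE 0.25), the inhibitory Smad protein Smad7 -0.47 (SE 0.13, with -0.23 for its brighter probe set), the transcription factor Runx1 -0.55 (SE 0.16), the glutathione transferase Mgst2 -0.40 (SE 0.11), Ap5z1 -0.43 (SE 0.12, with 0.00 for its brightest probe set) and Adgra3 -0.33 (SE 0.10).

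Genes of the hormone-sensing epithelium were described next. Pgr, the progesterone receptor and a target of the estrogen receptor, had 361, 164, 302, 132, 433, 409, 268 and 164 on day 1 and 255, 252, 347, 276, 54.3, 241, 35.3 and 34.0 on day 2. On day 2, 5 rats lay inside the range of day 1 and 3, those of 37.1, 41.6 and 43 h, lay below it. The change was -0.91 (SE 0.39) with a 95% interval from -1.71 to -0.11 and an adjusted p of 0.847, and it was -0.31 without the rats of 41.6 and 43 h. Greb1, an estrogen-induced cofactor of the estrogen receptor, was lowest in the same 3 rats, at 21.1, 21.5 and 26.4, against 84.6 to 180 in the other 5 of day 2 and 46.1 to 305 on day 1. Stc2, a secreted glycoprotein that estrogen induces, was lowest there as well, at 22.1, 24.6 and 26.7, against 90.0 to 131 in the other 5. On day 1 its lowest value was 44.3, in the rat of 13 h, which also had the lowest Pgr and Greb1 of that day. The changes were -1.19 (SE 0.43) for Greb1 and -1.12 (SE 0.34) for Stc2, with adjusted p of 0.752 and 0.637, and -0.75 for each without the rats of 41.6 and 43 h.

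**Figure D3:**
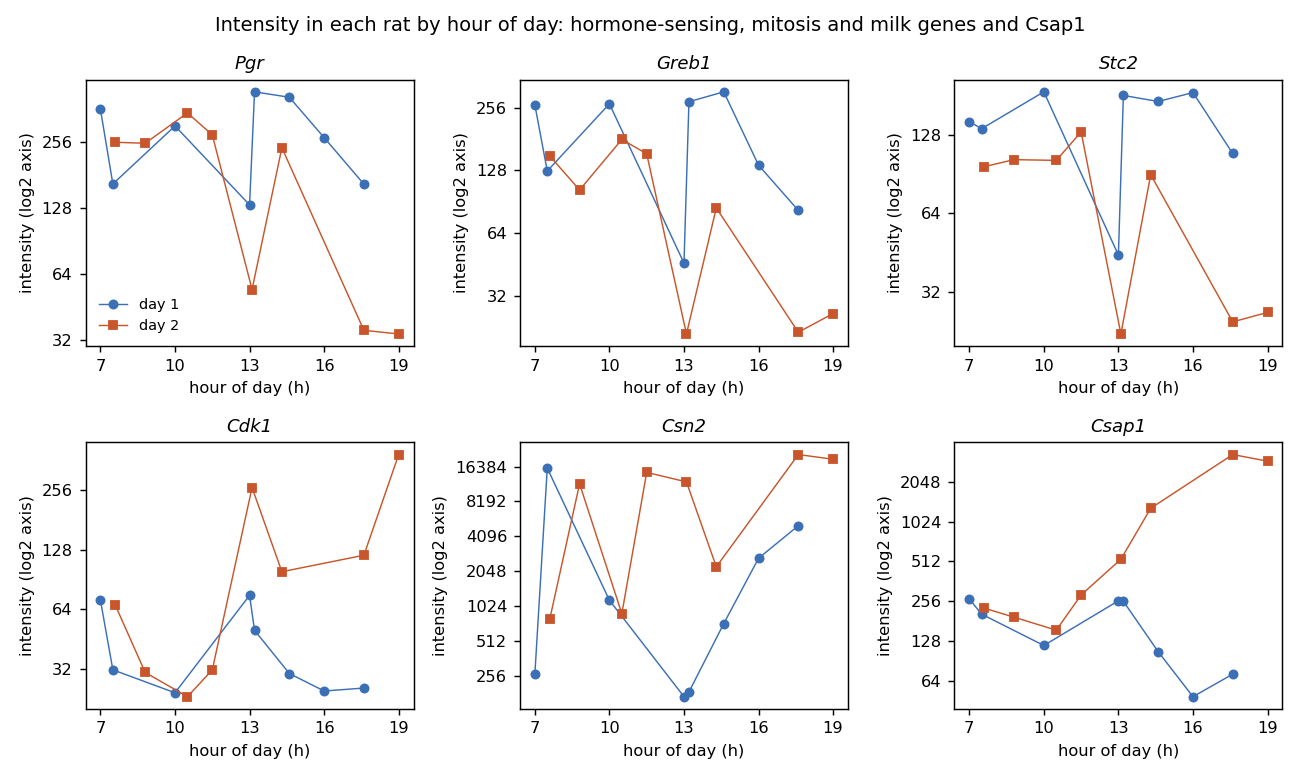
Intensity (log2 axis) against hour of day for Pgr, Greb1, Stc2, Cdk1, Csn2 and Csap1; blue circles are the 8 rats of day 1 and orange squares the 8 of day 2, each point a different rat, with lines that only join them in order of hour. The rats of 37.1, 41.6 and 43 h (13.1, 17.6 and 19 h of day 2) are the lowest of the 16 in Pgr, Greb1 and Stc2 and the highest 3 in Cdk1.

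Of the 12 genes listed for hormone-sensing epithelium and estrogen targets, 7 passed the filter and 0 passed the test. At an unadjusted p below 0.05, 4 were lower on day 2, against 2.07% of all probe sets. These were Pgr, Greb1, Stc2 and Prlr. The estimate was above 0 for 2 of the 7, with a highest value of 0.10. The median change of the list was -0.30, beside 0.01 over all probe sets, and -0.14 without the rats of 41.6 and 43 h. It was -0.15 with the levels of 4 marker lists (fat, muscle, luminal epithelium, and T and B cells) in the model. It ran from -0.47, without the rat of 7.5 h, to -0.22, without that of 43 h. Prlr, the prolactin receptor, had a change of -0.30 (SE 0.13), and -0.14 without the rats of 41.6 and 43 h. Areg, the EGF family ligand amphiregulin, ran from 395 to 3701 on day 1 and 149 to 4240 on day 2, and the interval of its change, -1.41 to 1.03, spanned both directions. Its estimate was -0.19 with all 16 rats and 0.57 without those of 41.6 and 43 h. Of the factors that progesterone induces, Wnt4 had a change of 0.04 (SE 0.17), with a 95% interval from -0.31 to 0.40, and Id4 0.39 (SE 0.20). In the list of progesterone targets, 0 of 7 measured genes differed even at an unadjusted p below 0.05, against 5.78% of all probe sets. For all 7 the interval lay between -1 and 1, as it did for 98.1% of all probe sets. Tnfsf11, which codes for RANK ligand, and Calca, the calcitonin gene, are on the array but did not reach an intensity of 10 on all 31 arrays.

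Cell division genes had the largest median of the lists with 5 or more measured genes. The estimate was above 0 for 24 of 24 mitosis genes, against 54.8% of all probe sets. Their median was 0.84, and 0 passed the test. At an unadjusted p below 0.05, 7 were higher on day 2 (29.2% of the list, against 3.7% of all probe sets), namely Nuf2, Nusap1, Kif20a, Cenpf, Cdk1, Knstrn and Ccnb1. Cdk1, the kinase that starts mitosis, had 71.1, 31.5, 24.1, 75.2, 49.98, 30.2, 24.6 and 25.5 on day 1 and 67.0, 30.6, 23.0, 31.5, 264, 99.0, 120 and 389 on day 2. The first 4 rats of day 2 lay within or just under the range of day 1, and the last 4 lay above it. The 3 highest rats were those of 37.1, 41.6 and 43 h, the same that were lowest in Pgr. The change of Cdk1 was 1.09 (SE 0.50) with an adjusted p of 0.847, and 0.62 without the rats of 41.6 and 43 h. The cyclins that partner it, Ccnb1 and Ccna2, had 0.94 (SE 0.43) and 1.02 (SE 0.55), which became 0.53 and 0.52 without those rats, and the spindle protein Nusap1, with the largest change of the list, 1.13 (SE 0.50). The spread was wide within day 2. The mean log2 level of the list, set to 0 over 31 rats, ran from -1.21 to -0.10 on day 1, and was 0.04, -0.99, -0.99, -1.18, 1.35, 0.24, 0.21 and 2.01 along day 2. With so much spread, only 1 of the 24 intervals lay between -1 and 1. The median of the list was 0.59 with the levels of the 4 marker lists in the model, and 0.48 without the rats of 41.6 and 43 h. Without each rat in turn it ran from 0.55, without the rat of 43 h, to 1.03.

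Genes of DNA replication had smaller values in the same direction. The estimate was above 0 for 23 of 24, against 54.8% of all probe sets, and the median was 0.35. At an unadjusted p below 0.05, 9 were higher (37.5%, against 3.7% of all probe sets), again with 0 past the adjusted threshold. The median was 0.26 with the levels of the 4 marker lists in the model, and 0.22 without the rats of 41.6 and 43 h. Mcm5, a subunit of the replicative helicase, ran from 14.8 to 34.9 on day 1 and 20.5 to 105 on day 2, with 99.2 in the rat of 37.1 h and 105 in that of 43 h. Its change was 0.90 (SE 0.33). Pola1, the catalytic subunit of DNA polymerase alpha, overlapped less, with 82.4 to 113 on day 1 and 97.3 to 166 on day 2,, with a change of 0.39 (SE 0.15). Cdt1, which loads the helicase, had 0.70 (SE 0.31). Among regulators of G1, the transcription factor E2f1 had 0.55 (SE 0.23), or 0.26 without those rats, and the cell cycle inhibitor Cdkn1a -0.38 (SE 0.14). Nuf2, Kif20a, Cenpf, Knstrn, Pola1, Cdt1 and Cdkn1a were named after their values were seen.

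Because the mitosis genes shared a direction, their promoters were read in RefSeq's GRCr8 genome, 250 bases upstream of each start, on both strands, for 11 motifs. Of the 24 genes, 21 matched. A gene counted if any of its promoters held the motif, while shares of all were counted per promoter. The shares are thus not in the same unit, and a gene with several promoters had more chances of a match. The CHR element TTTGAA, which the DREAM and MuvB complexes bind in cell cycle genes, was in 11 of the 21 (52.4%) and in 16.2% of all 33469 promoters. The CCAAT box was in 15 (71.4%) and in 34.0% of all, and the GC box GGGCGG in 14 (66.7%) and 30.5%. The TATA box TATAAA was in 1 of 21 and in 12.9% of all. The other 7 motifs were in 0 of the 21. These were the STAT element TTCNNNGAA (7.7% of all promoters), the steroid receptor element ACANNNTGT (5.8%), the E-box CACGTG (5.6%), the interferon-stimulated response element (3.4%), the sterol element TCACNCCAC (1.0%), the heat shock element (0.7%) and the palindromic estrogen response element (8 of all promoters). Motifs were searched separately, so that matches to different motifs may overlap. A match is a run of letters and not a measured binding site. The 150 bases upstream of the start of 3 of them follow, 5' to 3', with CHR elements and CCAAT boxes of either strand in capitals. These 3 had the smallest p among the mitosis genes that had a single promoter entry and both motifs in that stretch. The Cdk1 stretch is chr20:19265143-19265292 on the plus strand, that of Mki67, a marker of dividing cells, is chr1:199952594-199952743 on the minus strand, and that of Kif23, a kinesin of cytokinesis, is chr8:71320585-71320734 on the minus strand.
Cdk1: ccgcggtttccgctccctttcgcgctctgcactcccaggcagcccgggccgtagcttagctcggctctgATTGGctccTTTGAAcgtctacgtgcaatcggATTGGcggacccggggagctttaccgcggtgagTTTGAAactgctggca
Mki67: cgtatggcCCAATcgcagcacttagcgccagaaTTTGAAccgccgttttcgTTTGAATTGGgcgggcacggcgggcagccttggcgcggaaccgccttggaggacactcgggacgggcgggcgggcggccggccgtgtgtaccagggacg
Kif23: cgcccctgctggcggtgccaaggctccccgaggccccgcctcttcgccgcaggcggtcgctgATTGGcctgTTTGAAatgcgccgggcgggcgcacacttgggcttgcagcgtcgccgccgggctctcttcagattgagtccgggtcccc
In Cdk1 and in Kif23 a CHR element follows a CCAAT box on the reverse strand after 4 bases, and in Mki67 the second CHR element overlaps such a box. The change of Mki67 from day 1 to day 2 was 1.03 (SE 0.50) and that of Kif23 0.76 (SE 0.40), with adjusted p of 0.862 and 0.870.

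Milk protein genes differed widely between rats of the same day. Csn2, the beta-casein gene, had 263, 15911, 1149, 169, 185, 722, 2648 and 5063 on day 1 and 790, 11632, 879, 14614, 12096, 2235, 20839 and 18980 on day 2. The rat of 7.5 h was the highest of day 1 and lay within the upper values of day 2. The change was 2.42 (SE 0.996) with an interval from 0.39 to 4.46 and an adjusted p of 0.830. Glycam1, a mucin-like milk protein, ran from 38.4 to 13947 and from 116 to 16791, and its change of 3.11 (SE 1.18) was the largest of all 21068. Wap, the whey acidic protein, had 1.54 (SE 0.99), and 0.75 without the rats of 41.6 and 43 h. Csn1s1, the alpha-casein gene, varied less, from 12440 to 26304 on day 1 and 18880 to 30402 on day 2. Its change was 0.58 (SE 0.15) with an adjusted p of 0.488, and it passed when the levels of the 4 marker lists were added to the model, at 0.64 with an adjusted p of 0.0170. Of 14 milk genes, 14 had an estimate above 0, against 54.8% of all probe sets, and the median was 0.41. At an unadjusted p below 0.05, 4 were higher (28.6%, against 3.7% of all probe sets). These were Csn1s1, Glycam1, Csn2 and Mfge8, which codes for a milk fat globule protein. The median was 0.25 without the rats of 41.6 and 43 h.

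The myoepithelium is the contractile cell layer that squeezes milk from the alveoli. Of 10 measured markers of basal cells and myoepithelium, 6 were higher at an unadjusted p below 0.05 (60.0%, against 3.7% of all probe sets) and 1 lower (against 2.07%), with 0 past the adjusted threshold and a median of 0.29. The gamma-actin Actg2 had 706, 388, 500, 534, 496, 520, 346 and 387 on day 1 and 405, 630, 608, 774, 802, 759, 1263 and 1152 on day 2. The last 5 rats of day 2 lay above all 8 of day 1. Its change was 0.67 (SE 0.20), and the calponin Cnn1 had 0.55 (SE 0.17), the actin-binding Tagln 0.37 (SE 0.13), the keratin Krt5 0.46 (SE 0.20), the myosin kinase Mylk 0.24 (SE 0.11) and the myosin heavy chain Myh11 0.29 (SE 0.14). Outside the list, the myosin light chain Myl9 (0.53, SE 0.13) and the tropomyosin Tpm2 (0.52, SE 0.14, with 0.07 and an SE of 1.14 for a second probe set) were among the 15 genes highest in order of p. The lower marker was Oxtr, the oxytocin receptor, with 78.4 to 371 on day 1, 49.2 to 258 on day 2 and a change of -0.86 (SE 0.38). Several of these genes are also used by the smooth muscle of vessels. The endothelial list had a median of 0.08 with 0 of 10 past either threshold, against 5.78% of all probe sets at the unadjusted one. The skeletal muscle list had a median of 0.10, with a mean level from -4.31 to 2.41 on day 1 and -3.03 to 2.22 on day 2. Their part in the result was not tested. Cnn1, Tagln, Krt5, Mylk and Myh11 were named after their values were seen.

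**Figure D4:**
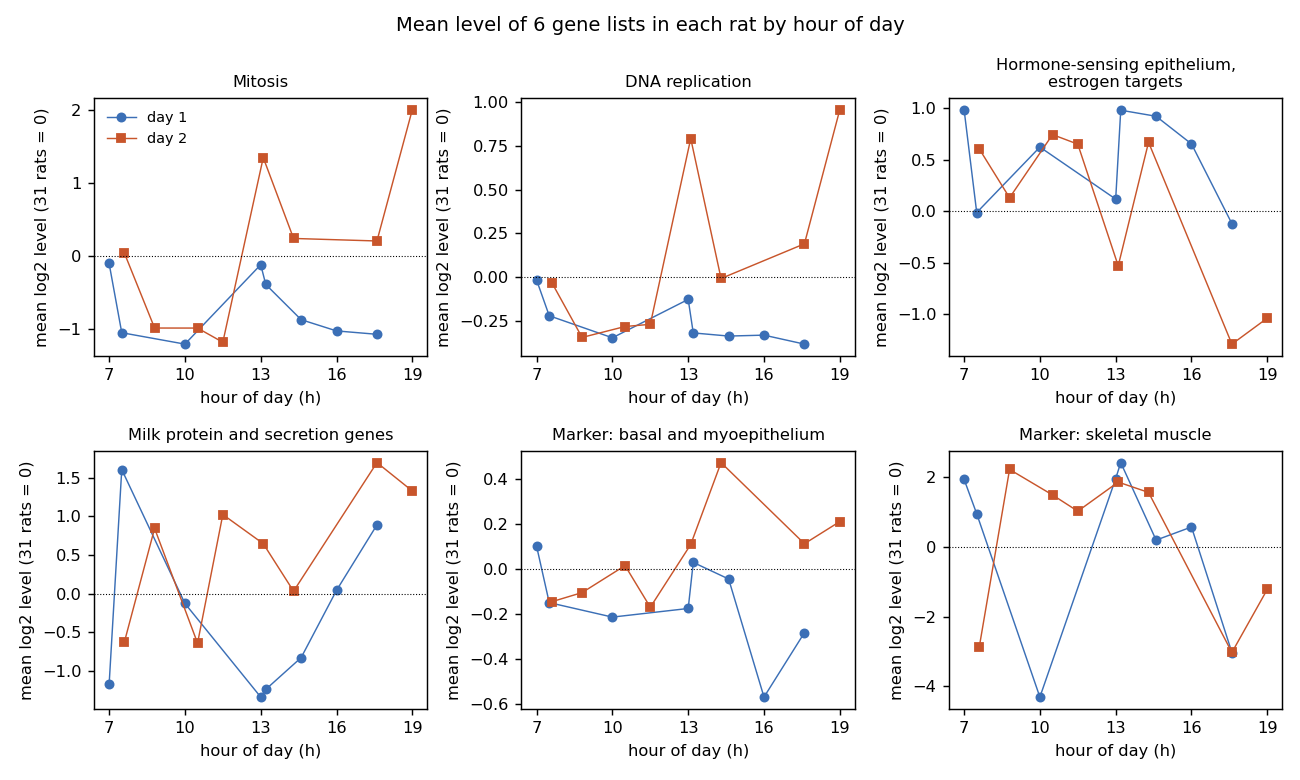
Mean log2 level of 6 gene lists (0 is the mean over 31 rats) against hour of day, with blue circles for the 8 rats of day 1 and orange squares for the 8 of day 2, each point a different rat. The mitosis level is near or below 0.04 in the first 4 rats of day 2 and highest, at 1.35 and 2.01, in those of 13.1 and 19 h of that day, and the skeletal muscle level spans several log2 units on both days.

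The matrix and its proteases showed a few larger estimates around a median near 0. Tnc, the matrix glycoprotein tenascin C, ran from 10.7 to 52.3 on day 1 and 18.8 to 134 on day 2, a change of 1.35 (SE 0.44, adjusted p 0.692). Postn, the matricellular protein periostin, had 0.29 (SE 0.12). Of 25 matrix genes, 3 were higher at an unadjusted p below 0.05 (Tnc, Vcan and Postn; 12%, against 3.7% of all probe sets). The median was 0.09, and without each rat in turn it ran from -0.02, without the rat of 17.6 h, to 0.17, without that of 13 h. Of 17 proteases and inhibitors, 3 were lower (Mmp3, Mmp11 and Mmp12; 17.6%, against 2.07% of all probe sets) and 1 higher (Adamts4; 5.88%, against 3.7%). Mmp11, the protease stromelysin 3, ran from 180 to 929 on day 1 and 88.6 to 460 on day 2, a change of -1.14 (SE 0.40). Mmp12, the macrophage elastase, had -0.80 (SE 0.38), and Adamts4 0.45 (SE 0.18). Vcan, Postn, Mmp12, Adamts4 and, above, Mfge8, Mki67 and Kif23 were named after their values were seen.

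Among the immune lists a few genes had lower estimates on day 2. Macrophage markers had a median of -0.19, with 12 of 13 estimates below 0, while 54.8% of all probe sets were above 0. At an unadjusted p below 0.05, 2 were lower (15.4%, against 2.07% of all probe sets), Aif1 (-0.26, SE 0.12) and Lyve1 (-0.37, SE 0.18). The median was -0.11 without the rat of 16 h. Cxcl13, a chemokine that attracts B cells, had -1.04 (SE 0.42). RT1-Ba, an alpha chain of MHC class II, had the most negative estimate of all probe sets, -2.31 (SE 1.03), which rests on 2 rats of day 2, those of 35.5 and 41.6 h, at 15.9 and 10.4. The other 14 rats had between 1479 and 4204. A second probe set of RT1-Ba had an estimate of the opposite sign, 2.33 (SE 1.15), so no direction can be given for this gene. The other MHC class II gene lower at an unadjusted p below 0.05, RT1-Bb, had -0.63 (SE 0.21). Aif1 and RT1-Bb were named after their values were seen. For 21 of 21 interferon-stimulated genes the interval lay between -1 and 1, as it did for 98.1% of all probe sets.

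**Figure D5:**
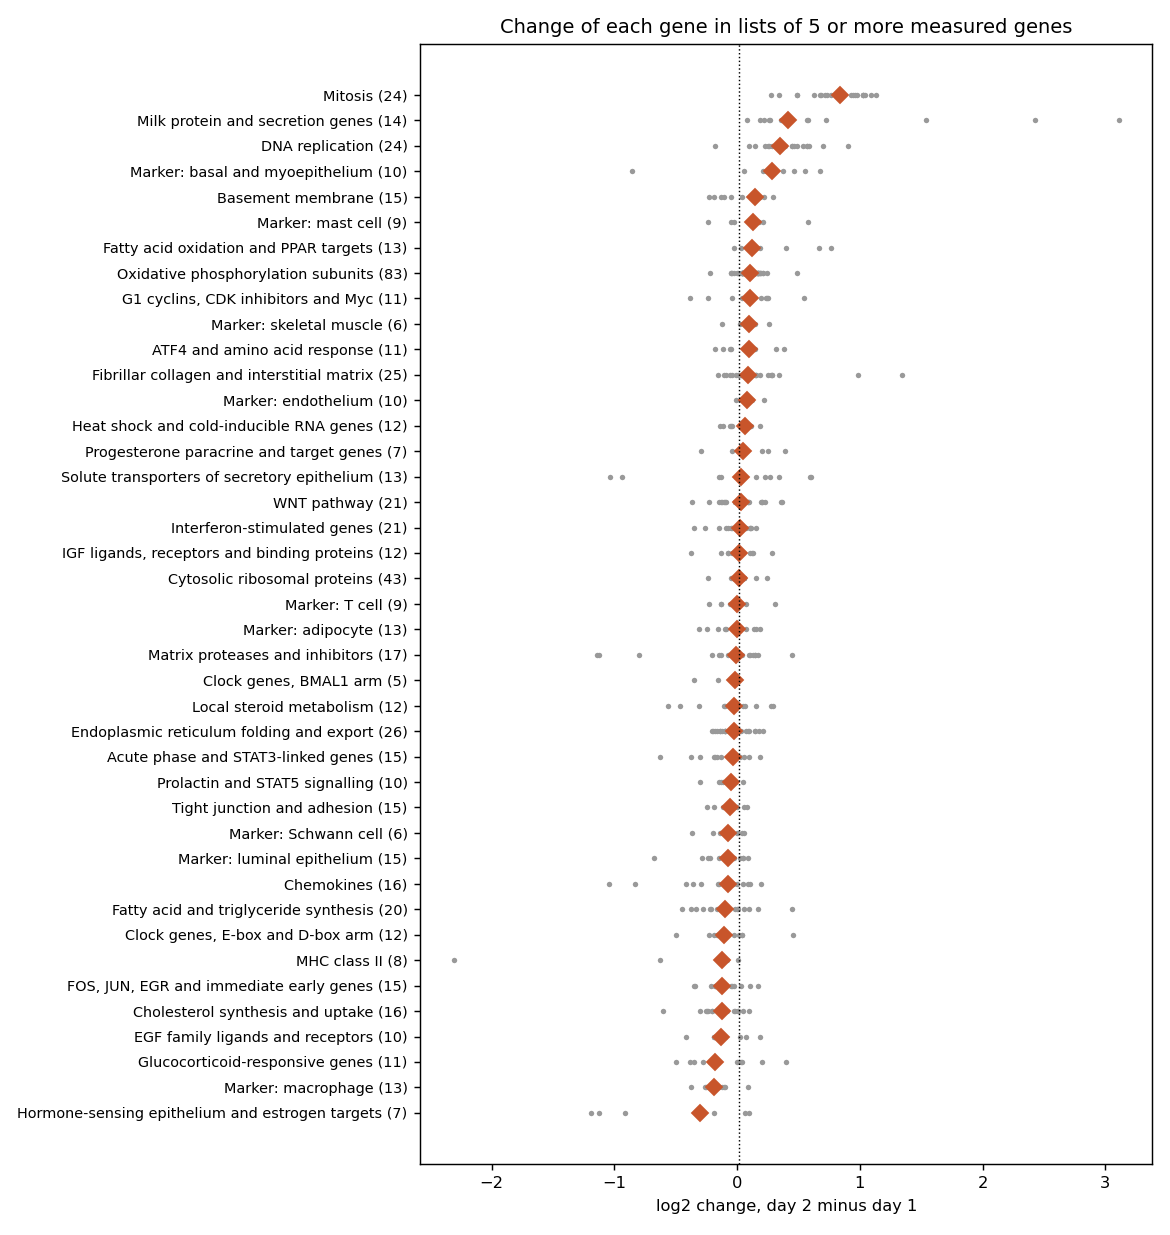
Log2 change from day 1 to day 2 (horizontal axis) for every measured gene (grey points) of each list with 5 or more measured genes; orange diamonds are list medians, the number measured is in parentheses, and the dotted line is the median over all probe sets. The mitosis list has the highest median, 0.84, and the hormone-sensing list the lowest, -0.30.

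B cell and plasma cell markers had medians of -0.31 and -0.32, over only 3 and 2 measured genes, with 0 past either threshold. The share of all probe sets past the unadjusted threshold was 5.78%. Of 11 glucocorticoid-responsive genes, 2 (18.2%, against 2.07% of all probe sets), Cdkn1a and Tsc22d3, were lower at an unadjusted p below 0.05, and the median was -0.18, or -0.09 without the rats of 41.6 and 43 h. Tsc22d3, a leucine zipper protein that glucocorticoids induce, had -0.35 (SE 0.17) and was named after its value was seen. All 46 lists had 0 members past the adjusted threshold, against 0.00475% of all probe sets higher and 0% lower. The adipocyte list had a median of 0.00, with 0.00 (SE 0.16) for Adipoq. Cytosolic ribosomal proteins had a median of 0.01 over 43 genes, and the endoplasmic reticulum list -0.03 over 26. In both every interval lay between -1 and 1, as did 98.1% of those of all probe sets. Subunits of oxidative phosphorylation had an estimate above 0 for 77 of 83 genes, against 54.8% of all probe sets. Their median was only 0.10, and 3 (3.61%) were higher at an unadjusted p below 0.05, close to the 3.7% of all probe sets. Clock genes, compared at the same hour of day, had 0 members past either threshold in this contrast. Of all probe sets, 5.78% passed the unadjusted one. The change was 0.00 (SE 0.25) for Bmal1, the activator of the circadian clock, -0.23 (SE 0.24) for its repressor Per2 and -0.11 (SE 0.32) for the output factor Dbp. Per1 had -0.50 (SE 0.24), with an unadjusted p of 0.0501 by limma, just over the threshold. Single genes with the largest change of their lists were Prom1, a luminal surface protein (-0.67, SE 0.20, and -0.36 without the rats of 41.6 and 43 h), the amino acid transporter Slc6a14 (-1.03, SE 0.48), the lipase inhibitor Angptl4 (0.77, SE 0.37), the plasma copper protein Cp (-0.63, SE 0.28, with -0.45 and -0.20 for its other probe sets, and -0.39 without those rats), the steroid dehydrogenase Akr1c14 (-0.56, SE 0.25) and the growth factor receptor Igf1r (-0.37, SE 0.14). None of these passed the test.

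The second question was whether a transcript moved differently along the hours of day 2 than along those of day 1. A model with a separate slope for each day called 3 of 21068 probe sets with a higher slope on day 2 (0.0142%) and 0 with a lower slope (0%). At an unadjusted p below 0.05 there were 1070 (5.08%), of which 730 had a higher slope on day 2 (3.46%) and 340 a lower one (1.61%). Nptxr, the neuronal pentraxin receptor, had 63.6, 79.9, 61.6, 46.6, 55.2, 58.1, 37.1 and 47.9 along day 1 and 33.3, 48.6, 32.3, 66.1, 62.6, 63.4, 89.6 and 120 along day 2. It was lower in later rats of day 1 and higher in later rats of day 2, with a difference in slope of 0.21 log2 units per h (SE 0.03) and an adjusted p of 0.00251. Its change between the days, 0.09 (SE 0.19), did not pass.

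Csap1, common salivary protein 1, had the steepest of the 3 slopes. Its intensity was 267, 205, 119, 259, 257, 107, 49.1 and 72.6 along day 1 and 228, 195, 156, 286, 533, 1289, 3271 and 2916 along day 2. The first 3 rats of day 2 lay within the range of day 1, the next, at 35.5 h, lay just above it, and the last 4 lay well above. The slopes were -0.16 and 0.41 per h, a difference of 0.58 (SE 0.10) with an adjusted p of 0.0359. Between the days its change was 2.02 (SE 0.58) with an adjusted p of 0.630, and with a separate slope on each day, compared at 13 h, it was 2.22 with an adjusted p of 0.0328. The median of day 3 was 1918. Col27a1, a fibrillar collagen chain, had slopes of -0.07 and 0.15 per h, a difference of 0.22 (SE 0.04) with an adjusted p of 0.0359. It reached 81.2 and 70.6 in the rats of 41.6 and 43 h, while the other 14 lay between 16.9 and 37.9. Prom2, a membrane protein next in order, had a difference of 0.31 (SE 0.06) with an adjusted p of 0.142.

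These calls depended on single rats. Without the rats of 41.6 and 43 h, 0 slopes passed. The differences were then 0.21 for Nptxr, 0.53 for Csap1 and 0.14 for Col27a1, each with an adjusted p of 0.99952. Without them the hours of day 2 end at 14.3 h, so the slope rests on a shorter range of hours. The part of that shorter range in the loss of the calls was not tested. With each of the 16 rats left out in turn, Nptxr passed in 15 (not without the rat of 43 h, adjusted p 0.0777), Csap1 in 4 (without the rat of 13, 13.2, 31.6 or 38.3 h) and Col27a1 in 2 (without the rat of 13 or 38.3 h), with an adjusted p of up to 0.322 for both. With only the 16 arrays of days 1 and 2 the adjusted p was 0.126 for Nptxr, 0.0919 for Csap1 and 0.136 for Col27a1. With the array of 40 h added, which the study had discarded as seemingly corrupted, neither Csap1 nor Col27a1 passed. Csap1 had a difference of 0.47 (adjusted p 0.982) and Col27a1 0.20 (adjusted p 0.414), while Nptxr had 0.20 (adjusted p 0.00959). With no filter on low values Csap1 and Col27a1 both had an adjusted p of 0.0765. Of the lists, 9 of 24 mitosis genes (37.5%), 8 of 24 replication genes (33.3%), 6 of 10 basal and myoepithelial markers (60.0%) and 6 of 16 cholesterol synthesis genes (37.5%) had a higher slope on day 2 at an unadjusted p below 0.05, against 3.46% of all probe sets, and 0 of them passed the adjusted threshold. For Cdk1 the slopes were -0.07 and 0.27 per h, and for Actg2 -0.04 and 0.12. Pgr had -0.02 and -0.30 per h, a difference of -0.28 (SE 0.08) with an adjusted p of 0.939. Idi1, an enzyme of the cholesterol pathway, was 7772 in the rat of 7.5 h, while the other 15 rats lay between 189 and 380.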

How the data were processed

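RNA of each of the 32 rats was hybridised to its own Affymetrix Rat 230 2.0 array. Probe set intensity was computed by the authors with GC-RMA, a method that removes background by probe sequence and normalizes all arrays jointly, and was deposited on a linear scale, from 2.22 to 37317. The submitters' notes name GCRMA; its version was not given in the sources used here. No scan batch was known, so none could be tested, and the number of arrays limits the precision. After 57 control probe sets and those under 10 on any of 31 arrays were left out, 21068 probe sets were kept, of which 15568 have 1 gene symbol in the platform annotation (11211 genes), 353 several and 5147 none; 15524 matched RefSeq's GRCr8 gene table through Entrez identifiers. Log2 intensities of the 31 arrays were fitted with limma, with cycle day as a factor and hour of day (hours modulo 24, centred at 13 h) as a linear term, so that the 4 days share 1 spread; slopes came from a fit with a slope per day. p-values were adjusted by Benjamini-Hochberg over all kept probe sets, with a threshold of 0.05. The array of 40 h was not used in this fit and entered only in an alternative that added it to day 2.

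The members and gene lists were chosen with earlier results of these data known, so lists are described by counts and medians, without a test. Named genes were the 15 of largest change in each direction past the threshold, or else of smallest p, the 8 of smallest p in each direction of the slope contrast, the largest change of each list, and Pgr, Greb1, Stc2, Tnfsf11, Wnt4, Areg, Calca, Csn2, Wap, Cdk1, Ccnb1, Ccna2, Mcm5, Bmal1, Dbp and Per2; a gene stood in a list by its brightest probe set. Alternatives covered the filter, scale, normalization, hour term, variance model, arrays, tissue markers and probe sets. The fit was tested on simulated data. Models ran in limma 3.58.1 under R 4.3.3, and all other steps in Python 3.11.15 with numpy 2.4.6, pandas 2.3.3 and matplotlib 3.10.9.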

Additional observations from a re-analysis of the deposited data

Results flagged for a closer look

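Over 204 groups of 8 values, 9 (4.41%) held a rat far from the other 7, and chance gives about 5%. On day 1 these were Idi1 at 7772 in the rat of 7.5 h (next 376), Clca1 at 1879 in the rat of 10 h (next 4383), RT1-Ba at 1479 in the rat of 13.2 h (next 3182), Adgra3 at 274.9 in the rat of 14.6 h (next 322.8) and Brme1 at 52.76 in the rat of 17.6 h (next 39.8). The rat of 13 h was the lowest of day 1 in Stc2 at 44.29 (next 108.5), in Clca4l at 38.8 (next 90.5) and in Cacna2d3 at 11.45 (next 14.8). On day 2, Ssr1, which codes for a subunit of the translocon-associated complex of the endoplasmic reticulum, was highest at 1416 in the rat of 43 h (next 1003).

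The slope along the hours of the day differed between day 2 and day 1 by the test of the difference itself for Nptxr (0.21 log2 units per h), Csap1 (0.58) and Col27a1 (0.22), with adjusted p of 0.00251, 0.0359 and 0.0359 by limma.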

How the results depend on the processing

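The count of probe sets higher on day 2 was 1 in the reported fit. It was 0 with a filter of 20, which removes LOC102552773, and 0 without the rats of 41.6 and 43 h. It was 2 with a separate slope on each day (Csap1 added) and 2 with 4 tissue marker lists as covariates (Csn1s1 added); the cause was not tested. Without each rat in turn it ran from 0 to 1. The count lower on day 2 was 0 in every setting run, with 437 at an unadjusted p below 0.05 in the reported fit. The count of higher slopes on day 2 was 3 in the reported fit, 0 with only the 16 arrays, 0 without the rats of 41.6 and 43 h, 1 with no filter, 1 with the 40 h array, and from 0 to 4 without each rat in turn. The count of lower slopes ran from 0 to 1 without each rat in turn (Lilra5, named after its value was seen, without the rat of 7.5 h). With array weights 168 slopes were higher and 104 lower, and 2028 probe sets, against 1217, differed between the days at an unadjusted p below 0.05; the cause was not tested. Of 1472 list medians under the alternatives, 1466 moved by less than the smaller of the day 1 and day 2 SDs of the list's level between rats. That bound is wide. The mitosis median, 0.84 in the reported fit and 0.48 without the rats of 41.6 and 43 h, stayed within it. Of the 1472, 92, in 20 lists, changed sign. No paired analysis was possible because the labels give no replicate numbers and each rat stands for a time point of its own. Transcripts under an intensity of 10 on any array were not tested, and no time point has a replicate.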

Other observations

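The array labelled 40 h, which the comparison left out, falls between the rats of 38.3 and 41.6 h. The study discarded this array because its data seemed corrupted, so its values may not be reliable. Its intensity was 23.2 for LOC102552773 and 14846 for Clca1, both above the highest rat of day 1. For other genes it lay within the range of day 1: 269.5 for Pgr, 195 for Greb1, 93.9 for Stc2, 50.3 for Cdk1, 831 for Csn2 and 64.7 for Csap1. The rats on either side of it had 1289 and 3271 for Csap1 and 241 and 35.3 for Pgr. With this array added to day 2, LOC102552773 had a change of 0.98 with an adjusted p of 0.0120 by limma, while the slope differences of Csap1 and Col27a1 no longer passed (adjusted p 0.982 and 0.414).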
